A study of Mus musculus with 8 samples.

Results

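The 45 genes described here encode assembly factors of the respiratory complexes, proteins that build complexes I to V of the mitochondrial inner membrane without staying in the finished enzyme. They were chosen by name and matched on gene symbol in the deposited table, where all 45 were found among 54532 genes. RNA was sequenced from brown adipose tissue of 4 wild-type mice (WT) and 4 mice whose genotype is labelled TG (CLCF1-ATG). CLCF1 is a cytokine that signals through gp130 receptors, and the series asks how it affects brown fat and its mitochondria. Mice are numbered 1, 2, 3 and 5 in each group. No label used here states age, sex, diet, housing temperature or the promoter of the transgene, and no further allele or agent is named for either group.

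Complexes I to IV pass electrons to oxygen, complexes I, III and IV pump protons, and complex V uses the proton gradient to make ATP. Brown fat is rich in mitochondria with an active electron transport chain, whose uncoupled respiration releases heat. Each complex is put together from modules. Assembly factors insert flavin, heme, iron-sulfur clusters and copper, hold partly built modules, help newly made subunits into the membrane, or modify subunits. They are needed in smaller amounts than the subunits, and loss of many of them causes human mitochondrial disease.

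Clcf1 stood at 0.434 to 3.40 FPKM (fragments scaled to gene length and library) in WT and 78.7 to 89.9 FPKM in TG, so all 8 libraries followed their labels. The reads recovered behind the FPKM numbered 13734231 to 15751302 in WT and 18494022 to 20183840 in TG. Of 8 brown adipocyte markers 7 were called lower in TG (summed level 6512 to 9157 FPKM in WT, 598 to 1001 FPKM in TG), while 5 of 7 markers of all adipocytes were called higher and 0 lower. All 5 endothelial markers were called lower (44.3 to 101.0 against 10.6 to 21.7 FPKM), as were all 4 of pericytes and smooth muscle (106 to 138 against 18.9 to 40.2 FPKM), and 4 of 6 macrophage markers were called higher (61.9 to 123 against 109.5 to 136 FPKM). Of 6 fibroblast and progenitor markers 3 were called higher and 1 lower (151 to 196 against 558 to 690.2 FPKM). B and T cell lists each had 1 of 2 tested markers called higher, with Cd3e under 0.5 FPKM in all libraries. The 3 tested neutrophil markers were called lower, with a summed level of 12.5 to 384 against 3.95 to 25.8 FPKM and Ly6g and Mpo under 0.5 FPKM in all 8 libraries. Skeletal muscle markers summed to 2827 FPKM in WT 2 and 1577 FPKM in TG 5, against 11.6 to 273 FPKM in the other 6 libraries. The part of these markers in the results was not tested, except that leaving out WT 2 and TG 5 left 20 assembly factors lower and 2 higher of 42 tested. Of all 11793 genes tested in that setting, 1907 were called lower and 1827 higher. In bulk tissue, fewer cells of a type and less RNA per cell cannot be told apart.

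Most of the tested assembly factors fell in TG, and 2 rose. The genes needed at least 0.5 FPKM in at least 4 libraries to be tested, which 43 of 45 met. With limma and an adjusted p of 0.05 over all 12508 tested genes, 23 of 43 were called lower, where 21.8% of all genes were, and 2 were called higher, where 22.3% of all genes were. Their median log2 change (TG minus WT, from FPKM with 1 added) was -0.49, against 0.01 over all tested genes. The 4 TG values lay wholly below the 4 WT values for 21 members (20.5% of all genes) and wholly above for 3 (22.1% of all genes). Changes ran from -1.50 for Uqcc3 to 0.66 for Acad9, and 5 members fell at least 2-fold on this scale: Ecsit, Uqcc1, Uqcc2, Uqcc3 and Cox10. Cox17 passed the filter through its WT values alone; without it 22 of 42 were lower and the median was -0.51.

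**Figure D1:**
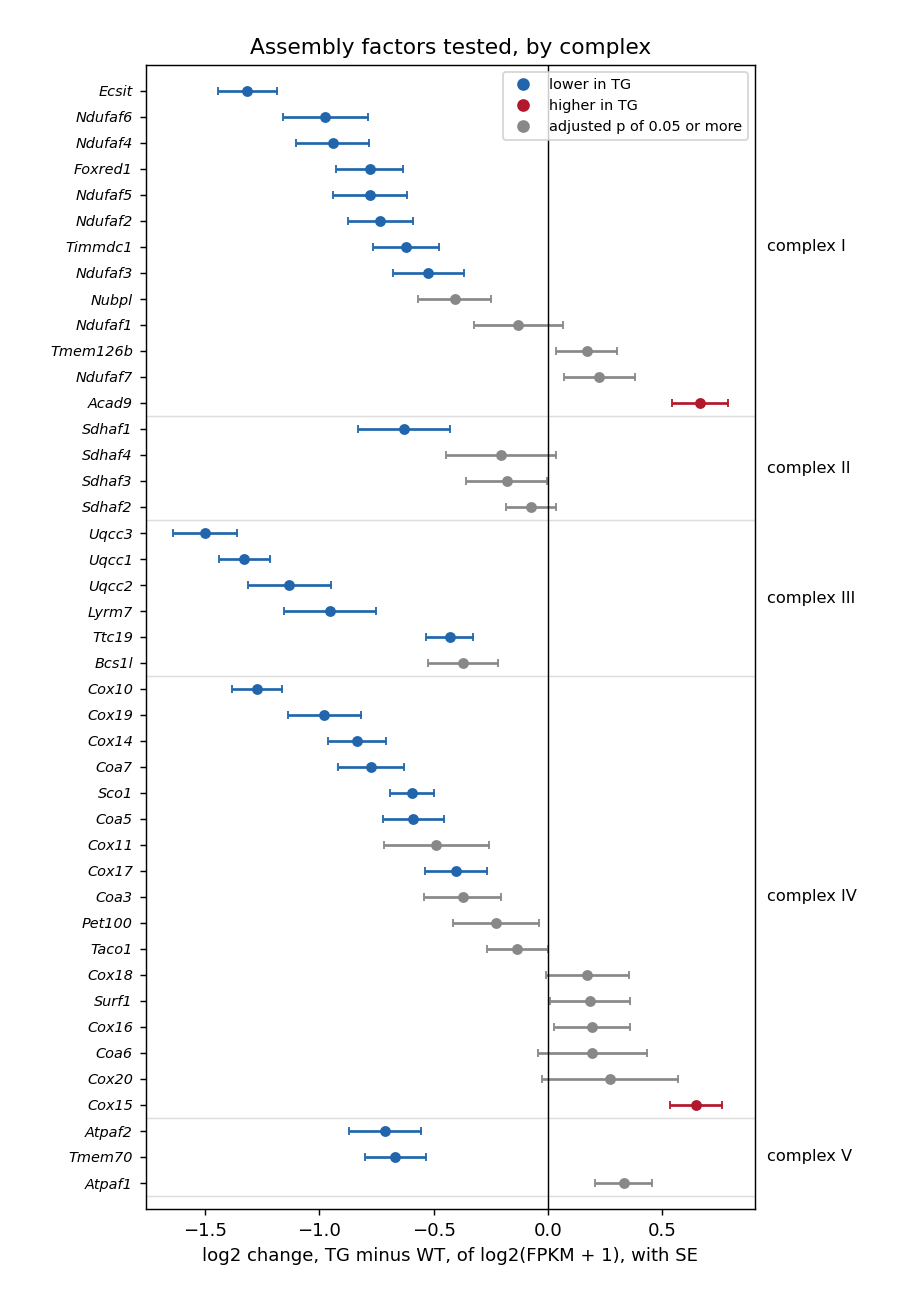
Log2 change (TG minus WT, on log2(FPKM + 1), points with SE) of the 43 assembly factors tested, by complex; blue marks those called lower, red those called higher and grey the rest. Complex III has 5 of 6 members lower (21.8% of all genes). Acad9 and Cox15 are the 2 called higher (22.3% of all genes) among 10 members with a positive change. Dividing by every recovered read of a library gives 11 lower (11.5% of all genes) and 10 higher (44.3% of all genes).

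The scaling of the libraries decides part of this count. Read back from the deposited FPKM, the reads of a WT library are 1.02 to 1.22 times what that library was divided by, and those of a TG library 0.822 to 0.883 times. Dividing instead by every recovered read of a library, called total-read scaling below, moved the median change of all genes to 0.32 and gave 11 members lower (11.5% of all genes) and 10 higher (44.3% of all genes). The rescaling that leaves out abundant genes gave 20 members lower (17.2% of all genes) and 4 higher (30.4% of all genes). Under total-read scaling the members' median was -0.17, and relative to the median of all genes it was -0.49, against -0.50 as deposited. The 11 that fell under both scalings were Ecsit, Ndufaf4, Ndufaf6, Uqcc1, Uqcc2, Uqcc3, Lyrm7, Cox10, Cox14, Cox19 and Coa7. These 11 and both genes that rose, Acad9 and Cox15, kept their call under every alternative in which they were tested.

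**Figure D2:**
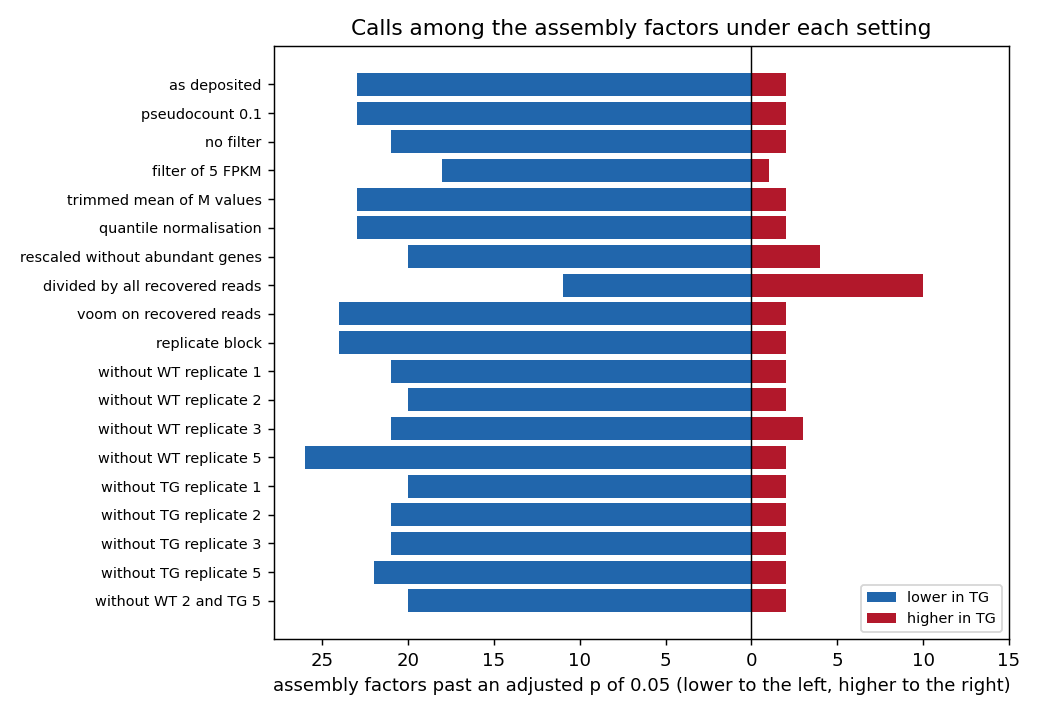
Number of assembly factors called lower (blue, to the left) and higher (red, to the right) as deposited and under each of 18 alternatives, named on the vertical axis. Total-read scaling, shown as divided by all recovered reads, gives 11 lower (11.5% of all genes) and 10 higher (44.3% of all genes). The other settings give 18 to 26 lower and 1 to 4 higher. The 18 and the 1 are of 30 members tested with the filter of 5 FPKM, where 1703 of 5700 genes were lower and 1445 higher. The 26 are of 42 tested without WT 5, where 2662 of 12197 genes were lower. The 4 are from the rescaling without abundant genes, where 30.4% of all genes were higher.

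Levels of the tested members spanned 0.825 to 254 FPKM in the WT mean, with a median of 12.8 FPKM, where the nuclear subunits of complexes I to V had a median of 402 FPKM. Highest were Cox14, Coa3, Uqcc2, Uqcc3, Tmem70 and Atpaf2, the 6 members over 50 FPKM, and 12 tested members were under 5 FPKM. One WT library set much of the spread: WT 5 was the lowest WT library for 32 of 43 members and lay below all 4 TG libraries for 14 of them. The shares over all tested genes were not computed, so these counts are not read as particular to the members. In WT 5 the median difference from the WT mean (log2(FPKM + 1)) was -0.31 for the factors and -0.32 for the nuclear subunits. WT 5 also had the highest share of reads on the mitochondrial chromosome, 37.5% against 24.1% to 29.0% in the other WT libraries and 6.09% to 7.34% in TG; the part of this share in the results was not tested. Without WT 5, 26 of 42 members were called lower and 2 higher, where 2662 of all 12197 genes were called lower and 2724 higher.

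**Figure D3:**
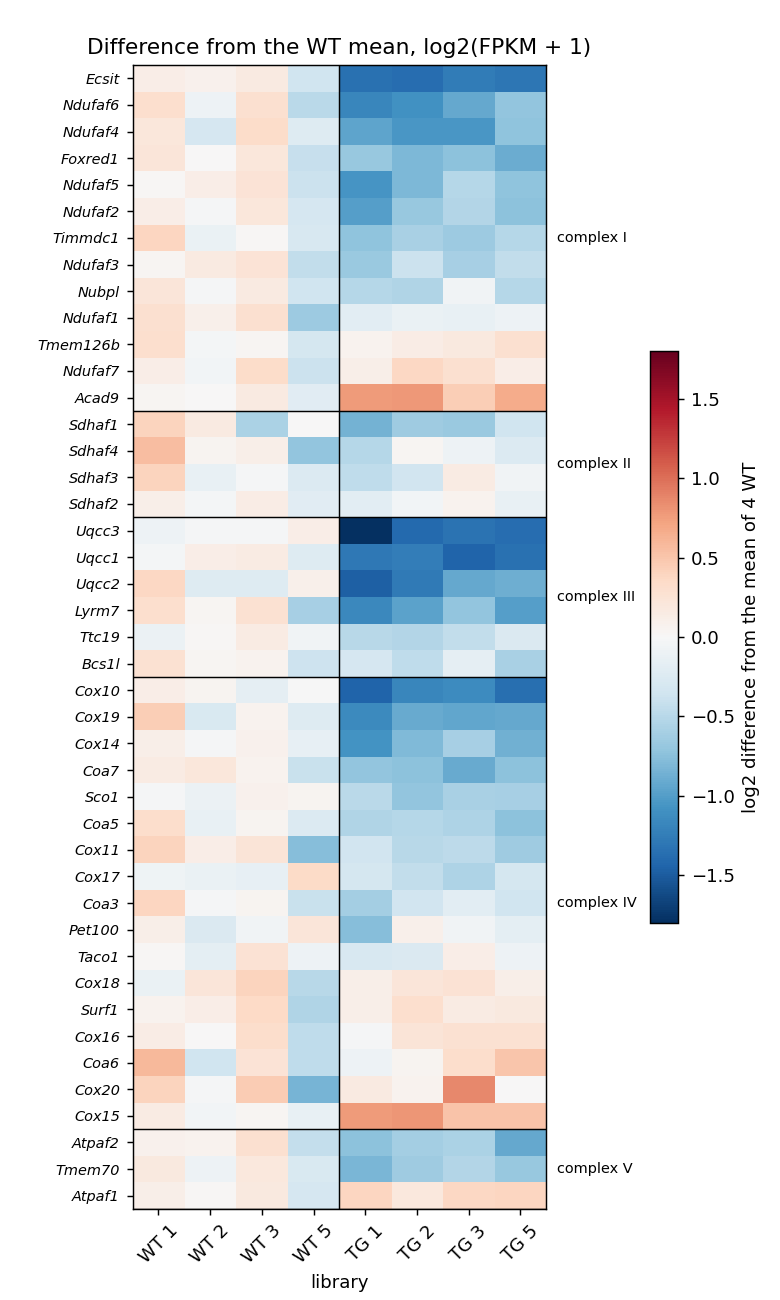
Difference of each library from the mean of the 4 WT libraries (log2(FPKM + 1)) for the 43 tested members, in rows by complex and ordered by their change; columns are the 8 libraries. The TG columns are blue for most rows of complexes I and III and red for Acad9 and Cox15, and WT 5 is bluer than the other WT columns.

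Complex I factors. Of 13 factors 8 were called lower (21.8% of all genes), 1 higher (22.3% of all genes) and 4 neither. Their median log2 change was -0.62. Ecsit, a member of the MCIA complex that builds the membrane arm (ENSMUSG00000066839, chromosome 9, 22072246 to 22085438, minus strand), measured 39.3, 38.4, 40.8 and 27.9 FPKM in WT mice 1, 2, 3 and 5 and 13.6, 13.4, 14.6 and 14.2 FPKM in TG mice 1, 2, 3 and 5; values are given in this order throughout. The TG libraries lay close together, and the lowest WT library, WT 5, was still above all of them (log2 change -1.31, SE 0.127, limma adjusted p = 4.31e-05). Ndufaf4 (ENSMUSG00000028261, chromosome 4, 24898083 to 24905001, plus strand), which acts early on the arm that binds ubiquinone, had 16.6, 11.4, 18.3 and 11.98 FPKM in WT against 6.91, 6.40, 6.40 and 8.23 FPKM in TG. The WT values of Ndufaf4 fell into a higher pair, WT 1 and 3, and a lower pair, WT 2 and 5, with no TG library reaching either (log2 change -0.94, SE 0.161, limma adjusted p = 0.00129).

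Acad9, an acyl-CoA dehydrogenase that is also part of the MCIA complex (ENSMUSG00000027710, chromosome 3, 36065979 to 36092853, plus strand), went the other way. Its levels were 2.89, 2.79, 3.25 and 2.27 FPKM in WT and 5.45, 5.51, 4.12 and 4.98 FPKM in TG, so every TG library was above every WT library (log2 change 0.66, SE 0.122, limma adjusted p = 0.00197). Within the libraries, the ratio of Acad9 to Ecsit FPKM was 0.0726 to 0.0813 in WT and 0.282 to 0.410 in TG, a quantity that no scaling of whole libraries changes. Ndufaf1 and Tmem126b, which also belong to the MCIA complex, were not called. Ndufaf1 (ENSMUSG00000027305, chromosome 2, 119655446 to 119662827, minus strand) had the highest p of the complex I factors, at 23.3, 20.2, 23.3 and 11.7 FPKM in WT and 16.5, 17.4, 17.2 and 17.8 FPKM in TG (log2 change -0.13, SE 0.194, limma adjusted p = 0.615). The 4 TG libraries lay close together, while WT 5 lay below and the other WT libraries above them; without WT 5 Ndufaf1 was called lower (log2 change -0.35, limma adjusted p = 0.0144, the range over its alternatives being 0.0144 to 0.904).

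Among the other factors of complex I, those called lower were Ndufaf6 (-0.97), which takes part in early membrane-arm steps, Ndufaf5 (-0.78), which hydroxylates an arginine of Ndufs7, and Foxred1 (-0.78), an oxidoreductase-like factor. The late-acting factor Ndufaf2 (-0.73), the membrane protein Timmdc1 (-0.62) and Ndufaf3 (-0.52), the partner of Ndufaf4, were also called lower. Ndufaf2, Ndufaf3, Ndufaf5, Foxred1 and Timmdc1 lost the call under total-read scaling (limma adjusted p = 0.0572, 0.587, 0.0874, 0.0666 and 0.242), each of these being the highest over its alternatives. Ndufaf3 also lost it when any of WT 2, WT 3, TG 1 or TG 3 was left out, with adjusted p from 0.00126 to 0.587 over its alternatives. Nubpl, which delivers iron-sulfur clusters, had 4.81 ± 0.981 and 3.37 ± 0.749 FPKM in the WT and TG groups (limma adjusted p = 0.0647, SD over n = 4 mice). Ndufaf7, a methyltransferase, had 8.66 ± 1.97 and 10.1 ± 1.02 FPKM (adjusted p = 0.268), and Tmem126b 7.77 ± 1.52 and 8.76 ± 0.658 FPKM (adjusted p = 0.337). Both were called higher under total-read scaling (adjusted p = 0.00814 and 0.00908), Ndufaf7 also after the rescaling without abundant genes (0.0368), and over the alternatives they reached 0.565 and 0.668.

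Complex II factors. Of 4 factors 1 was called lower and 0 higher, with a median log2 change of -0.19, a share near the 21.8% of all genes called lower. Sdhaf1 (ENSMUSG00000074211, chromosome 7, 30321406 to 30323895, minus strand), which protects the iron-sulfur subunit while its clusters go in, measured 8.80, 7.28, 3.96 and 6.42 FPKM in WT and 3.10, 3.75, 3.66 and 4.75 FPKM in TG. The groups overlapped, since WT 3 lay among the TG libraries (log2 change -0.63, SE 0.202, limma adjusted p = 0.0298). The call of Sdhaf1 was lost under 10 of its 17 alternatives, among them leaving out any of WT 1, WT 2, WT 5, TG 1, TG 2 or TG 3, and its adjusted p ran from 0.00271 to 0.287. Sdhaf2, which attaches FAD to the catalytic subunit (ENSMUSG00000024668, chromosome 19, 10500513 to 10525209, minus strand), had 16.8, 15.03, 16.98 and 13.3 FPKM in WT and 13.4, 14.9, 16.3 and 14.05 FPKM in TG, with the groups interleaved (log2 change -0.07, SE 0.109, limma adjusted p = 0.614); it was called higher under total-read scaling (log2 change 0.33, limma adjusted p = 0.0355, with a range of 0.0355 to 0.958). Sdhaf3 and Sdhaf4, which act on the iron-sulfur and flavin subunits, had log2 changes of -0.18 and -0.20 (adjusted p = 0.435 and 0.519).

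Complex III factors. Of 6 factors 5 were called lower (21.8% of all genes) and 0 higher (22.3% of all genes). Their median log2 change was -1.04, the lowest median of the 5 complexes' factors. The 3 proteins that receive newly made cytochrome b all fell. Uqcc1 (ENSMUSG00000005882, chromosome 2, 155846894 to 155930310, minus strand) measured 17.5, 19.7, 20.1 and 15.2 FPKM in WT and 6.82, 7.06, 5.98 and 6.47 FPKM in TG (log2 change -1.33, SE 0.112, limma adjusted p = 1.94e-05). Uqcc3 (ENSMUSG00000071654, chromosome 19, 8880016 to 8880933, minus strand) measured 94.7, 99.1, 99.3 and 109.6 FPKM in WT and 26.1, 37.6, 39.2 and 38.4 FPKM in TG (log2 change -1.50, SE 0.14, limma adjusted p = 3.42e-05). Neither gene's groups overlapped, and TG 1 stood lowest for Uqcc3. Uqcc2, the partner of Uqcc1 (ENSMUSG00000024208, chromosome 17, 27122663 to 27133916, minus strand), measured 130.4, 85.3, 84.8 and 106 FPKM in WT and 35.6, 40.9, 52.6 and 54.2 FPKM in TG, with a wider spread in WT but no overlap (log2 change -1.13, SE 0.182, limma adjusted p = 0.000909).

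The Rieske iron-sulfur protein is the last catalytic subunit to enter complex III. Lyrm7, which holds it in the matrix, fell from 3.75 ± 1.22 to 1.40 ± 0.314 FPKM (limma adjusted p = 0.00398, SD over n = 4 mice). Bcs1l, the ATPase that moves it across the membrane (ENSMUSG00000026172, chromosome 1, 74588289 to 74592443, plus strand), had 12.5, 10.4, 10.7 and 7.57 FPKM in WT and 8.06, 7.15, 9.01 and 6.43 FPKM in TG, and its groups overlapped only through WT 5 (log2 change -0.37, SE 0.154, limma adjusted p = 0.0769). It was called lower without WT 5 (limma adjusted p = 0.0127) and with the replicate block, the range over its alternatives being 0.0127 to 0.958. Ttc19, which clears fragments of the Rieske protein, fell by 0.43 on the log2 scale (limma adjusted p = 0.00775), with TG wholly below WT; under total-read scaling the change was -0.05 (adjusted p = 0.731, the highest over its alternatives, the lowest being 0.00545).

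Complex IV factors. Of 19 factors 17 could be tested, of which 7 were called lower (21.8% of all genes), 1 higher (22.3% of all genes) and 9 neither. Cox17, among the 7, passed the filter through its WT values alone. The median log2 change of the 17 was -0.37. Cytochrome c oxidase carries heme A, which is made from heme in consecutive steps by Cox10, the heme O synthase, and Cox15, the heme A synthase. These neighbours in the pathway moved in opposite directions. Cox10 (ENSMUSG00000042148, chromosome 11, 63962627 to 64079468, minus strand) measured 12.9, 12.3, 10.5 and 11.8 FPKM in WT and 3.76, 4.70, 4.87 and 4.04 FPKM in TG (log2 change -1.27, SE 0.109, limma adjusted p = 2.14e-05). Cox15 (ENSMUSG00000040018, chromosome 19, 43733254 to 43753000, minus strand) measured 3.72, 3.10, 3.34 and 2.86 FPKM in WT and 6.19, 6.34, 5.07 and 5.08 FPKM in TG (log2 change 0.65, SE 0.113, limma adjusted p = 0.00147). The groups did not overlap for either gene, and the FPKM ratio of Cox15 to Cox10 within a library was 0.242 to 0.317 in WT and 1.04 to 1.65 in TG. Surf1, which helps heme A into the COX1 subunit, did not pass, at 26.8, 28.03, 33.04 and 17.2 FPKM in WT and 27.6, 31.9, 28.5 and 28.99 FPKM in TG (log2 change 0.18, SE 0.175, limma adjusted p = 0.428), with WT 2 among the TG values, WT 3 above them and WT 1 and WT 5 below; it was called higher under total-read scaling (limma adjusted p = 0.0239, with a range to 0.997).

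**Figure D4:**
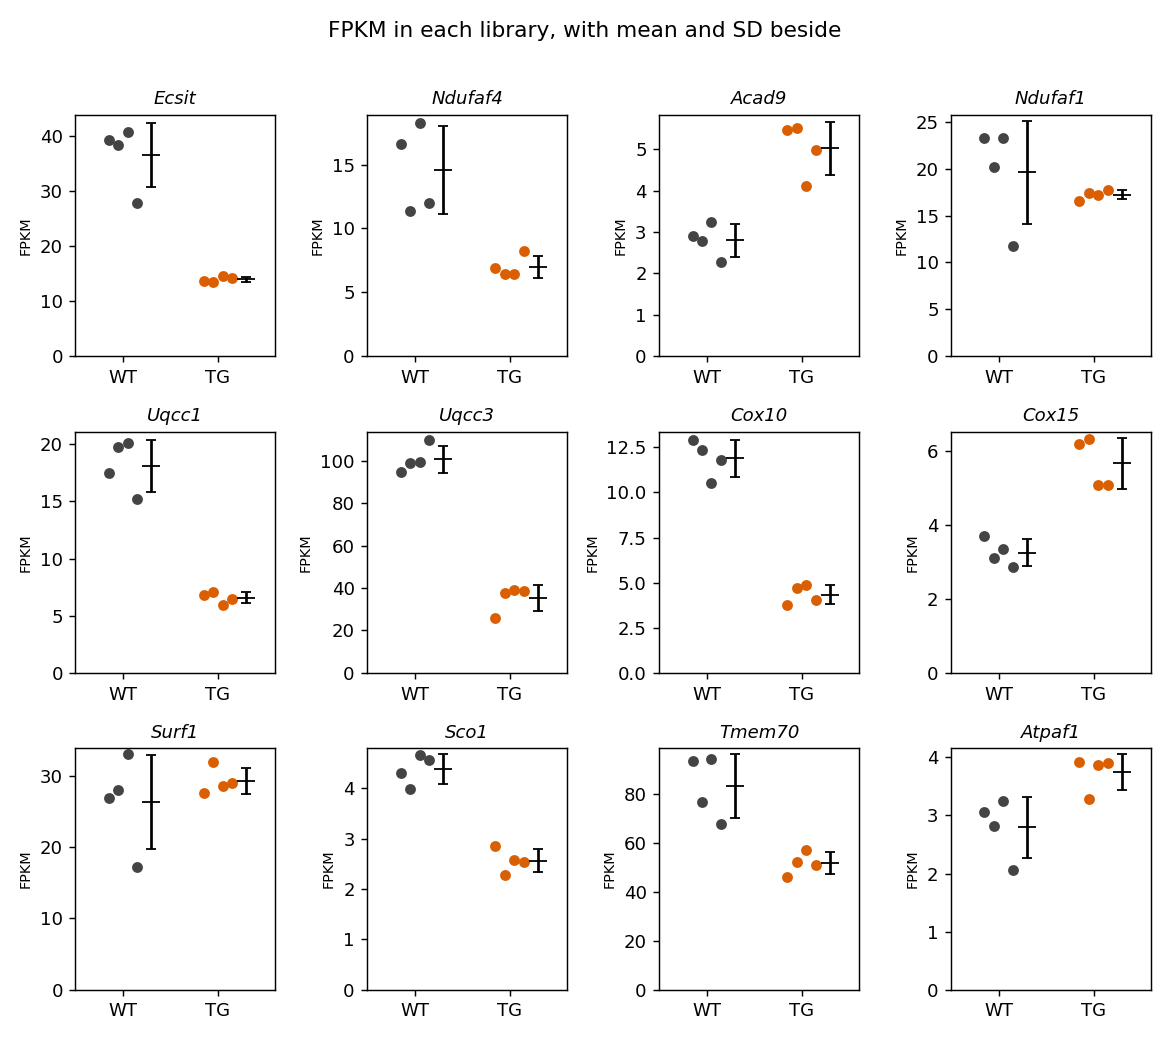
FPKM of 12 assembly factors in each of the 4 WT (grey) and 4 TG (orange) libraries, with mean and SD beside the points, each panel starting at 0. Cox10 lies wholly lower and Cox15 wholly higher in TG, Acad9 rises while Ecsit falls, and WT 5 is the low WT point for Ndufaf1 and Surf1.

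The promoters of Cox10 and Cox15 are shown because both hold the same ETS-type letters. That of Ttc19 is shown because it holds an NRF1 core and a CRE. Whether these letters act on the transcripts was not tested. Each is 300 bases from RefSeq (GRCm38.p6), from 250 before to 50 after the start, and capitals mark the ETS-type letters CCGGAAGT and the YY1-type letters AAGATGGC in Cox10, CCGGAAGT in Cox15, and the CRE TGACGTCA and NRF1 core CGCATGCG in Ttc19. The Cox10 promoter is chr11:64079423-64079722, minus strand; that of Cox15 is chr19:43752951-43753250, minus strand; and that of Ttc19 is chr11:62281223-62281522, plus strand.
Cox10: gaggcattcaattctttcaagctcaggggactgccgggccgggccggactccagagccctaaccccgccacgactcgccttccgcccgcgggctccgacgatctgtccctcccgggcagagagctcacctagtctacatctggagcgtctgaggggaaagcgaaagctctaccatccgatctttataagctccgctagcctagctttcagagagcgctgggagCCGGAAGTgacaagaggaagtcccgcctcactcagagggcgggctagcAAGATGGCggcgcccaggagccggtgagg
Cox15: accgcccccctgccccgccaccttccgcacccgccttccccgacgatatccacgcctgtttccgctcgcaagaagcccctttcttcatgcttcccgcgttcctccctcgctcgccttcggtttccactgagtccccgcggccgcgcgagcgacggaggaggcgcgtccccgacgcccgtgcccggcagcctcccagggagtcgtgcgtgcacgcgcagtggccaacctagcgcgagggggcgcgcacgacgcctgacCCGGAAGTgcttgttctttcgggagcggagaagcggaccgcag
Ttc19: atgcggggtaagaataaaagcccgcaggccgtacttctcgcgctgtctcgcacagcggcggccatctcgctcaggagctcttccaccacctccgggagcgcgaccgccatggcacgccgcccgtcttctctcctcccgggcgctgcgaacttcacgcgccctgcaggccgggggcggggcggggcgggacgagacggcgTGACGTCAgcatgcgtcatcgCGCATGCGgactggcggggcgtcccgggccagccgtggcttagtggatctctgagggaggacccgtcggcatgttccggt

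Copper reaches complex IV through a relay in the intermembrane space. Cox19 (ENSMUSG00000045438, chromosome 5, 139336189 to 139351418, minus strand), a CX9C protein that works with Cox11, measured 34.3, 20.5, 26.00 and 21.03 FPKM in WT and 10.7, 12.8, 12.6 and 12.6 FPKM in TG, with no overlap (log2 change -0.98, SE 0.16, limma adjusted p = 0.00099). Sco1, which hands copper to COX2, fell from 4.38 ± 0.296 to 2.56 ± 0.233 FPKM (limma adjusted p = 0.001, SD over n = 4 mice), a call lost under total-read scaling (0.0561, the highest over its alternatives). Cox17, the copper donor of the relay, was listed at 0.720, 0.670, 0.625 and 1.29 FPKM in WT and 0.458, 0.335, 0.235 and 0.453 FPKM in TG (log2 change -0.40, SE 0.134, limma adjusted p = 0.0348), from 31 to 85 reads per library. The gene length deposited for Cox17, 5773 bases, equals the span of the gene from start to end, and 57.9% of a protein-coding Cox17 transcript matches the overlapping gene Gm21987. All TG values of Cox17 were under the 0.5 FPKM of the filter, which it passed through its WT values alone, so its call is not independent of the filter. The call of Cox17 was lost under 7 of the 12 alternatives in which it was tested, including leaving out any 1 TG library. Cox11, which brings copper to COX1, had a log2 change of -0.49 (adjusted p = 0.113) and was called lower without WT 5 (limma adjusted p = 0.00119, with a range to 0.495). Coa6 (ENSMUSG00000051671, chromosome 8, 126422515 to 126425433, plus strand), which acts with the SCO proteins, had the highest p of the complex IV factors, at 43.3, 21.99, 34.1 and 20.5 FPKM in WT and 26.7, 29.8, 35.9 and 40.8 FPKM in TG, the groups overlapping throughout (log2 change 0.19, SE 0.238, limma adjusted p = 0.537); under total-read scaling it was called higher (0.0428, with a range to 0.945).

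Of 6 factors that handle newly made COX1 to COX3, 1 was called lower and 0 higher, a share near the 21.8% of all genes called lower. Cox14 (ENSMUSG00000023020, chromosome 15, 99725618 to 99728136, plus strand), which binds nascent COX1 and was the most abundant member, measured 272, 249.7, 267 and 229 FPKM in WT and 119, 146, 168 and 138 FPKM in TG (log2 change -0.83, SE 0.127, limma adjusted p = 0.000669). Its partner Coa3 had 115 ± 25.6 and 87.8 ± 10.6 FPKM (limma adjusted p = 0.0998, SD over n = 4 mice) and was called lower without WT 5 (adjusted p = 0.0186, with a range to 0.816). Taco1, an activator of COX1 translation, had 9.47 ± 1.41 and 8.54 ± 1.27 FPKM (adjusted p = 0.441). Cox16, Cox18 and Cox20, which serve COX2, had log2 changes of 0.19, 0.17 and 0.27 (adjusted p = 0.378, 0.471 and 0.486); Cox16 and Cox18 were called higher under total-read scaling (0.0237 and 0.0470), their ranges reaching 0.820 and 0.981. Coa7, a protein of the intermembrane space, fell from 5.59 ± 1.16 to 2.81 ± 0.222 FPKM (limma adjusted p = 0.00195), and Coa5, another CX9C protein, by 0.59 on the log2 scale (adjusted p = 0.00567), its call being lost under total-read scaling (0.296, the highest over its alternatives). Pet100, a small membrane factor, had 12.8 ± 1.97 and 10.99 ± 2.78 FPKM (adjusted p = 0.354).

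Complex V factors. Of 3 factors 2 were called lower (21.8% of all genes) and 1 was not called, with a median log2 change of -0.67. Tmem70, which helps the ring of c subunits form (ENSMUSG00000025940, chromosome 1, 16665207 to 16678275, plus strand), measured 93.3, 76.7, 94.2 and 67.7 FPKM in WT and 46.1, 52.2, 56.97 and 50.9 FPKM in TG (log2 change -0.67, SE 0.132, limma adjusted p = 0.00284). Atpaf2 (ENSMUSG00000042709, chromosome 11, 60400626 to 60418457, minus strand), the chaperone of the alpha subunit, measured 61.8, 61.6, 71.7 and 43.4 FPKM in WT and 34.7, 37.9, 39.3 and 30.5 FPKM in TG (log2 change -0.71, SE 0.157, limma adjusted p = 0.00518). Neither gene's groups overlapped, and both calls were lost under total-read scaling (limma adjusted p = 0.142 and 0.166, the highest over their alternatives). Atpaf1 (ENSMUSG00000028710, chromosome 4, 115784812 to 115818828, plus strand), the chaperone of the beta subunit, measured 3.06, 2.82, 3.25 and 2.06 FPKM in WT and 3.93, 3.28, 3.87 and 3.90 FPKM in TG; all TG values were above all WT values, yet the test was not passed (log2 change 0.33, SE 0.125, limma adjusted p = 0.0563). It was called higher under total-read scaling, after the rescaling that leaves out abundant genes and when WT 3 was omitted, over a range of 0.00286 to 0.182. The pseudogene Gm14117 matches 72.4% of an Atpaf1 transcript at 100% identity and reached 11.4 FPKM, so reads of the pair may be split in a way the table does not show.

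The finished enzymes' nuclear subunits, from lists made by name, gave larger changes. Of 80 subunits tested 76 were called lower (21.8% of all genes) and 0 higher (22.3% of all genes), with a median log2 change of -1.76. By complex the medians were -1.75 (I), -1.40 (II), -2.17 (III), -1.87 (IV) and -1.52 (V). Under total-read scaling 71 subunits were called lower (11.5% of all genes), with a median of -1.33, against -0.17 for the factors. None of the 43 assembly factors had a change below the subunits' median, and 4 of 80 subunits had one above the factors' median. In each TG library the median difference from the WT mean was -0.55 to -0.51 for the factors and -1.90 to -1.54 for the subunits. The mean log2(FPKM + 1) of the factors minus that of the subunits in the same library was -4.60 to -4.56 in WT and -3.47 to -3.25 in TG, WT 5 included, so the distance between both groups was smaller in every TG library. The factors' lower level bears on this through the added 1: with 0.1 added in its place their median change was -0.61, and with voom on the recovered reads also -0.61. Other assembly factors, 22 tested of a list of 24, had 18 lower (21.8% of all genes) and 0 higher (22.3% of all genes), with a median of -0.68. Their count under total-read scaling was not computed.

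**Figure D5:**
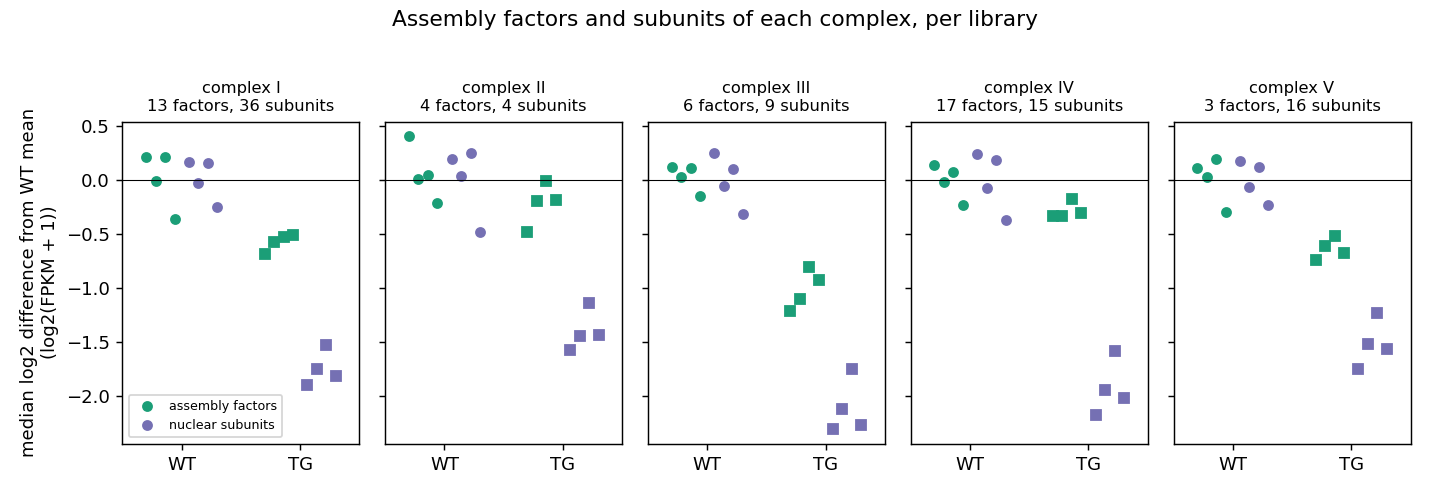
Median log2 difference from the WT mean (log2(FPKM + 1)) of assembly factors (green) and nuclear subunits (purple) of each complex, 1 point per library, circles WT and squares TG. The TG points of the factors lie above those of the subunits in all 5 complexes, and complex III has the lowest factor points.

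Gene models limit some of these values. In GENCODE M21, which shares the assembly of the deposited coordinates, more than 50% of the exonic bases of 7 members also belong to another gene: Pet117 (100%, within Kat14), Sco2 (91.8%, with Tymp and Ncaph2), Cox20 (91.1%, with Hnrnpu), Sdhaf1 (69.6%), Ndufaf2 (65.7%), Cox16 (56.8%) and Pet100 (52.6%). Sco2, which acts with Sco1, and Pet117 were listed at 0 in all 8 libraries and Cox20 had 0 to 45 reads per library; no source used here gives the strand setting of the counting, and how it treated shared bases was not tested. Of the 38 members with at most 50% shared, 21 were lower (21.8% of all genes) and 2 higher (22.3% of all genes), with a median of -0.51. The shares among all genes with as few shared bases were not computed. Of 14 members whose start lies within 1000 bases of the start of a protein-coding gene on the other strand, 6 were called and had a tested neighbour, and 3 of these 6 neighbours were called. Esf1 beside Ndufaf5 (log2 change -0.51) and Zswim7 beside Ttc19 (-0.92) were lower like the member, and Unc50 beside Coa5 (0.35) was higher while Coa5 was lower. Over all tested genes 21.8% were called lower and 22.3% higher. Cutc, the neighbour of Cox15 in this arrangement, had a log2 change of 0.18 (adjusted p = 0.342). Alternatives were not run on these neighbours.

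In the RefSeq promoters, held for 39 of the 45 members, 5 motifs were sought on both strands, and 16 members had at least 1. The ETS-type letters CCGGAAGT were in 6 of 39 members (15.4%), against 4.31% of 27025 genes and 9.42% of the tested genes, and 7.58% of 66 nuclear subunit promoters; the 6 members were Bcs1l, Cox10, Cox14, Cox15, Cox16 and Timmdc1. The YY1-type letters AAGATGGC were in 5 (12.8%, against 3.19% and 5.42%, and 13.6% of the subunits), namely Atpaf2, Cox10, Cox20, Tmem126b and Uqcc2. The RefSeq start of Atpaf2 lay 1423 bases downstream of its start in the deposited table. This distance was 319 bases for Lyrm7, 1520 for Sdhaf1 and 6252 for Cox19. The NRF1 core CGCATGCG was in Ndufaf4, Ndufaf5 and Ttc19 (7.69%, against 2.07% and 4.44%, and 13.6% of the subunits), and the CRE letters TGACGTCA were in Coa7, Nubpl, Pet100 and Ttc19 (10.3%, against 2.03% and 3.59%, and 6.06% of the subunits). The letters TCAAGGTCA, to which estrogen-related receptors can bind, were in 0 of 39 members, 0.466% of all genes, 0.333% of the tested genes and 3.03% of the subunits. Members with a match were found among those called lower, called higher and not called. In Cox10 the ETS-type match starts 27 bases before the RefSeq start and the YY1-type match 21 after it; in Cox15 the ETS-type match starts 7 bases after it.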

How the data were processed

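The authors deposited 1 table of FPKM values for 8 libraries; per the submitters' processing notes bcl2fastq, HISAT2 2.0.5, featureCounts 1.5.0-p3 and mm10 were used, with no statement of the divisor used per library. Multiplying each FPKM by its gene's length gave whole multiples of a library-specific step (largest distance from a whole number 1.61e-07), and hence the reads used for depth, voom and division by all reads; a tested member had a median of 448 reads. The test was limma 3.58.1 (R 4.3.3, eBayes with trend, two-sided) on log2(FPKM + 1). It covered 12508 genes, those reaching 0.5 FPKM in 4 or more libraries, and p-values were adjusted by Benjamini-Hochberg. Mice are taken as the replicates, as the design text gives 4 per group. Members and lists were chosen with earlier results of these data known. Members with a value per library are, for each complex, up to 3 with the lowest p among those called and the one with the highest p; Cox15, Surf1, Cox17 and others outside this rule were chosen after their values were seen. Copies were sought with blastn 2.17.0 (90% identity over 50% of the length) in GENCODE M21. The 3 genes Ndufb1, Atp5md and Coa1 of the lists were not found by name. The rescaling without abundant genes divides by reads outside mitochondrial, haemoglobin and the 20 most abundant genes. The mouse numbers were checked for pairing; figures used matplotlib 3.10.9.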

Additional observations from a re-analysis of the deposited data

Results flagged for a closer look

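In 8 of 86 groups of 4 values, those of the 43 tested members in WT and TG, 1 library stood far from the other 3 (a gap beyond Dixon's 95% limit for 4 values); chance flags about 1 in 20 groups. TG 1 was the low library for Uqcc3 (26.1 FPKM, the others 37.6 to 39.2), Cox19 (10.7, the others 12.6 to 12.8) and Cox16 (3.25, the others 4.05 to 4.21). TG 3 was the high library for Nubpl (4.49 FPKM, the others 2.93 to 3.03) and Cox20 (2.23, the others 0.791 to 0.998). Cox17 was high in WT 5 (1.29 FPKM, the others 0.625 to 0.720). Coa5 was low in TG 5 (23.2 FPKM, the others 26.6 to 27.1), and Atpaf1 was low in TG 2 (3.28 FPKM, the others 3.87 to 3.93). Nubpl was called lower without TG 3 (log2 change -0.52, limma adjusted p = 0.0272) or WT 5 (-0.53, adjusted p = 0.0162), and with voom on the reads of all 8 libraries (-0.52, adjusted p = 0.0446). Over its alternatives the adjusted p ran from 0.0162 to 0.741.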

How the results depend on the processing

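Of 25 called members 13 kept their call and direction under every one of the 18 alternatives in which they were tested, and the pseudocount of 0.1, trimmed mean of M values and quantile normalisation changed no member's call. Leaving out 1 library at a time gave 20 to 26 members lower, 2 to 3 higher and a median log2 change of -0.60 to -0.43. Of all 12175 to 12214 genes tested in these settings, 2288 to 2662 were called lower and 2119 to 2724 higher. In all, 4407 to 5386 genes were called. A filter of 5 FPKM left 3148 of 5700 tested genes called (1703 lower and 1445 higher), against 5513 of 12508 as deposited. With this filter 30 members were tested, 18 lower and 1 higher. The rescaling without abundant genes gave 20 members lower (17.2% of all genes) and 4 higher (30.4% of all genes). Division by all recovered reads gave 11 lower (11.5% of all genes), 10 higher (44.3% of all genes) and a median of -0.17. The sign turned, for members not called as deposited, with that rescaling for Ndufaf1 (0.029), Sdhaf2 (0.084) and Taco1 (0.017). With that division it turned for Ndufaf1 (0.27), Sdhaf2 (0.33), Sdhaf3 (0.12), Sdhaf4 (0.21), Bcs1l (0.011), Coa3 (0.052), Taco1 (0.25) and Pet100 (0.17). Without WT 2 and TG 5 it turned for Coa6 (-0.029), and without WT 5 for Cox20 (-0.0062, leave-one-out values running up to 0.42); the cause was not tested. Deviations of same-numbered libraries had correlations of -0.24 to 0.04. The highest correlation, 0.39, was between WT 2 and TG 5, which had the highest skeletal muscle marker levels, so this check cannot settle whether the mice were paired. The replicate block gave 24 members lower, 2 higher and a median of -0.49. Of all 12508 genes it called 4847, 2458 lower and 2389 higher. The plot of calls under each setting shows these counts. Among the tested members Cox20, Cox11 and Cox17 had few reads, 0 to 45, 22 to 73 and 31 to 85 per library.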
